A study of Mus musculus with 8 samples.

Results

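Genes of 9 surface receptor chains of macrophages were followed through mammary macrophages of the mouse: 8 integrin chains and Adgre1, the gene of F4/80. The integrin genes were Itgam, Itgax, Itgal, Itgb2, Itga4, Itgb1, Itgav and Itgb7. A gene was represented by its probe sets that map to that symbol alone, all of them for Itgam and otherwise the one with the highest mean signal over the 8 arrays. The 9 genes had 23 such probe sets, of which 13 lay above their array's median signal on at least 2 arrays, and all 9 genes had one that did, among 13083 genes tested. Itgam had 1 probe set, so that no second measurement of it exists here.

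The mice were FVB females, 6 weeks old when treatment began. MMTV-iFGFR1 transgenic mice carry an inducible fibroblast growth factor receptor 1 driven by the MMTV promoter, known for its activity in mammary epithelium rather than in the macrophages sorted here. Transgenic mice and littermates lacking the transgene (controls) were all injected with dimerizer, the compound that brings the receptor molecules together. The 4 groups were transgenic after 4 weeks, control after 4 weeks, transgenic after 48 hours and control after 48 hours of dimerizer, with 2 pools of 3 mice in each. The glands were digested with collagenase, cells were sorted by an antibody to Cd11b, and their RNA was amplified in a two-cycle protocol and hybridised to Affymetrix mouse arrays. Cd11b is the protein of Itgam, and other leukocytes (monocytes, neutrophils, part of the dendritic cells, NK cells) carry it as well. For transgenic 4 weeks pool 2 the labels disagree: its free-text description speaks of non-transgenic donors, whereas 3 other labels (title, source and genotype) call it transgenic, as it was treated here.

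Integrins are pairs of an alpha and a beta chain that hold cells to matrix and to other cells, and a chain reaches the surface only with its partner. In leukocytes the beta 2 chain (Itgb2, CD18) pairs with alpha L (Itgal, the LFA-1 receptor of ICAMs), alpha M (Itgam, the Mac-1 or complement receptor 3 that takes up iC3b-coated particles) and alpha X (Itgax, CD11c, a marker of dendritic cells that many tissue macrophages share). The alpha 4 chain (Itga4) pairs with beta 1 (Itgb1) to bind VCAM-1 and fibronectin or with beta 7 (Itgb7) to bind MAdCAM-1, and alpha V (Itgav) binds RGD-containing matrix proteins and takes part in the activation of latent TGF-beta. F4/80 is a 7-pass adhesion receptor of the EGF-TM7 family and a classical surface marker of mouse tissue macrophages.

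The values are MAS5 signals, linear intensities per probe set that the authors scaled to one target on every array; with the top and bottom 2% of probe sets left out, the mean of each array was 500. Median signals ran from 96.2 to 126.7 over the 8 arrays. Of 13 listed macrophage markers 12 were measured, with Csf1r, the CSF1 receptor of the macrophage lineage, between 68311 and 93065. Array control probe sets set apart control 4 weeks pool 2: its ratio of 3' to 5' beta-actin signal was 37.0, against 6.84 to 13.9 on the other 7 arrays, and its Gapdh ratio was 12.1, against 6.97 to 8.58. A high ratio is a usual sign of shorter copied RNA, and the 4 weeks genotype differences of the 9 genes are given with and without that array. Those of other genes and of the marker lists are given only with it. Detection calls were not used here, levels of different genes were not compared, and fewer cells of a type cannot be told apart from less RNA per cell in these pooled samples. The p-values of the gene comparisons measure the spread between pools, in part drawn from other genes, and 2 pools per group limit the precision.

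No receptor gene passed the test between genotypes at either time. On the log2(signal + 30.8) scale, at a Benjamini-Hochberg adjusted p of 0.05 from limma, 0% of the 13083 genes were called between transgenic and control pools at 4 weeks and 0% at 48 hours, so the 9 genes share that outcome with every other gene tested. At an unadjusted p of 0.05, 1 of the 9 genes (Itgax) was past the threshold at 4 weeks, against 5.05% of all genes, and 0 of 9 at 48 hours, against 4.07%. The median log2 difference of the 9 genes, transgenic minus control, was 0.35 at 4 weeks, with 8 positive and 1 negative, beside -0.02 over all genes tested. At 48 hours it was -0.15, with 3 positive and 6 negative, beside 0.04 over all genes. Without control 4 weeks pool 2, the 4 weeks differences were 1.83 (Itgax), 0.78 (Itgav), 0.67 (Itgal), 0.49 (Adgre1), 0.37 (Itgb7), 0.31 (Itgb1), 0.03 (Itgb2), -0.23 (Itga4) and -0.42 (Itgam), and none passed the adjusted threshold.

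**Figure D1:**
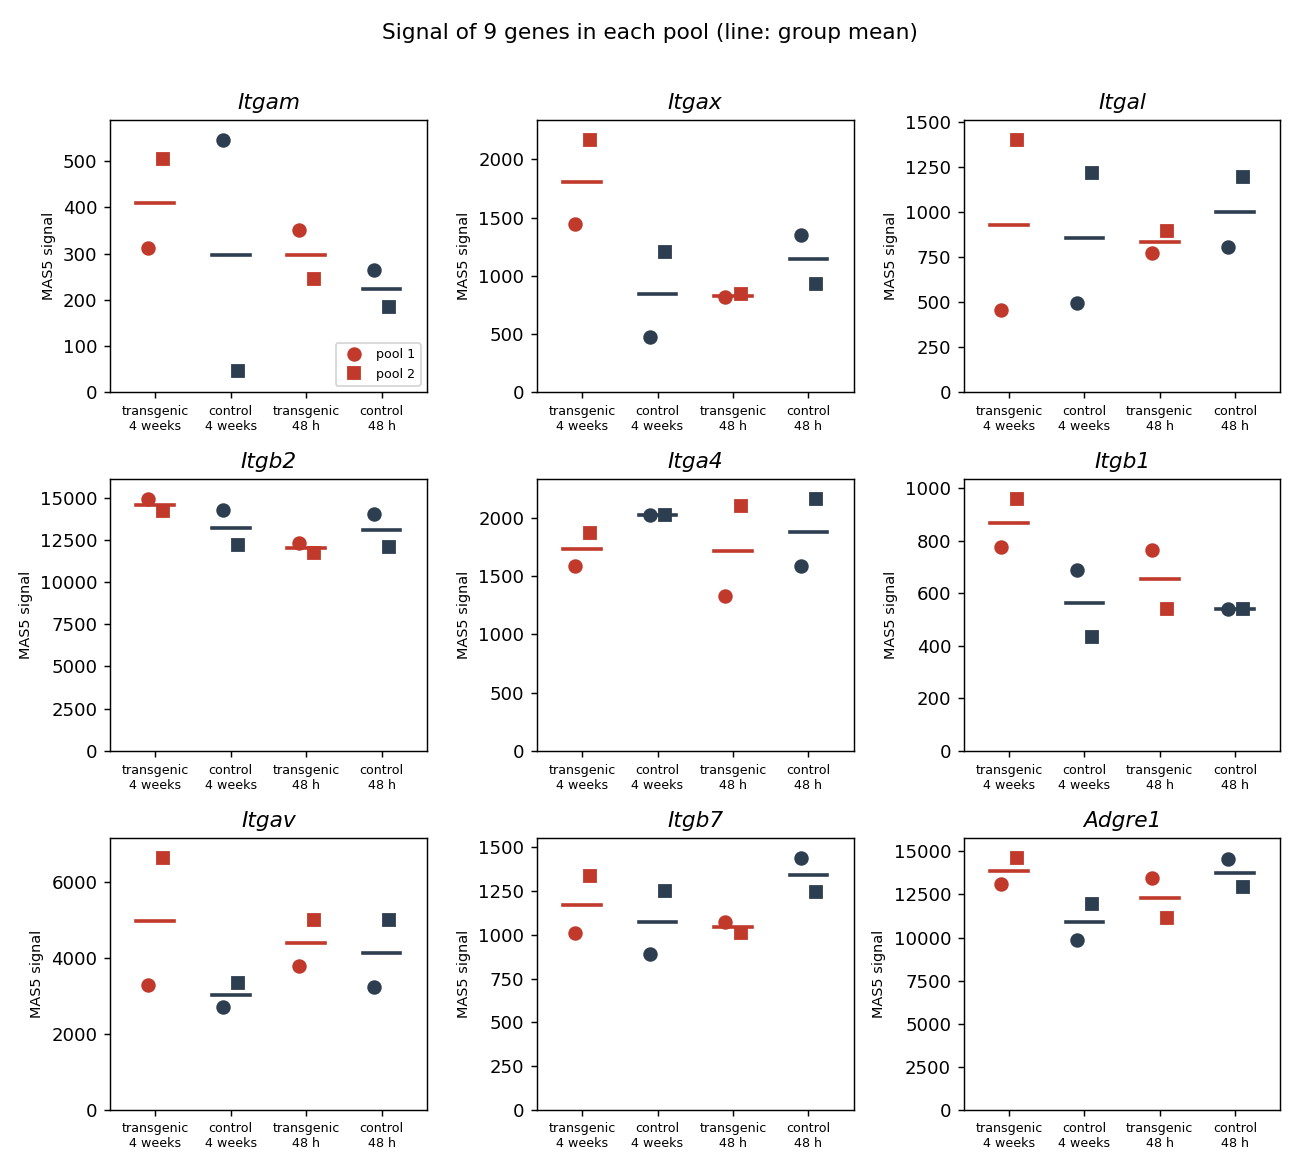
MAS5 signal (linear, axis from 0) of each of the 9 genes in each pool, by group; circles are pool 1, squares pool 2 and the line is the mean of the 2 pools. Itgb2 stays within 1.27-fold over the 8 arrays, while Itgam drops to 46.8 in control 4 weeks pool 2 and the 2 Itgax pools of the transgenic 4 weeks group lie above all others.

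The largest separation among the 9 genes was in Itgax, the CD11c chain. Its signal was 1443.4 and 2164 in transgenic 4 weeks pools, against 474.2 and 1205 in control 4 weeks pools. Both transgenic pools lay above both control pools, by 1.19 on the log2 scale (SE 0.41, 95% interval 0.28 to 2.09), a 2.28-fold difference. Limma's unadjusted p was 0.0150 and the adjusted p 0.966. At 48 hours Itgax was at 813.5 and 840.4 in transgenic pools, against 1353.8 and 928.1 in control pools, which is the other order: both transgenic pools were below both controls, by a log2 difference of -0.43 (SE 0.41, adjusted p 0.977). The 4 weeks genotype difference minus the 48 hours one was 1.61 (SE 0.58), with an unadjusted p of 0.0183 and an adjusted p of 0.989, in a test where 0% of genes passed after adjustment and 4.74% at an unadjusted p of 0.05. Ordered by the group mean of the linear signal, Itgax was highest in transgenic 4 weeks, then control 48 hours, control 4 weeks and transgenic 48 hours. On the log2 scale the last places are the other way round, with means of 9.74 in transgenic 48 hours and 9.63 in control 4 weeks. The control 4 weeks pools enclosed both transgenic 48 hours pools and overlapped with the control 48 hours pools.

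How large the Itgax difference was depended on single pools. The pool numbers were not taken to pair the pools. By pool number, the 4 weeks differences were 1.55 and 0.83 and the 48 hours differences -0.71 and -0.14. Any pairing of groups that do not overlap gives the same direction in both pairs. Without control 4 weeks pool 1, the lowest of the 8 Itgax values, the 4 weeks difference was 0.54 with an unadjusted p of 0.160. Without transgenic 4 weeks pool 2, the highest value, it was 0.90 with an unadjusted p of 0.108. Without control 4 weeks pool 2, the array with the high actin ratio, it was 1.83 with an adjusted p of 0.225, and with the actin ratio as a covariate 1.74 with an adjusted p of 0.346. The 4 weeks difference did not pass the adjusted threshold in these fits. Leaving out a pool could not turn its direction, because the groups do not overlap. The covariate fit could have turned it and did not. The 48 hours difference was -0.16 without control 48 hours pool 1.

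Dendritic cells also carry Itgax, and the 9 measured of 10 listed dendritic cell markers had summed signals of 7128.4 and 8952 in transgenic 4 weeks pools, against 5930.4 and 7859.1 in control 4 weeks pools, which overlap. At 48 hours the sums were 7139.1 and 5364.5 in transgenic pools, against 8033.7 and 6634 in control pools, which overlap as well. At 4 weeks 4 of the 9 markers were higher and 5 lower in transgenic pools (median log2 difference -0.01). At that time 1 of the 9, higher in transgenic pools, was past limma's unadjusted p of 0.05, beside 5.05% of all genes. Cd209a was at 2194.6 and 2915.6 in transgenic 4 weeks pools, against 1285.9 and 1296.7 in control 4 weeks pools. Xcr1 went the other way, at 120.2 and 31.5, against 152.3 and 132.9. At 48 hours 1 was higher and 8 were lower (median -0.47), the same direction as Itgax. The 4 weeks genotype difference minus the 48 hours one had a median of 0.46 over the 9 markers, beside -0.06 over all genes. Of the 9, 2 were past an unadjusted p of 0.05, beside 4.74% of all genes. Detection calls were not used, so the presence of each marker was not tested, nor was the part of these cells in the Itgax difference.

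Itgam, the sort marker's own gene, varied more between 2 pools of one group than any other of the 9. Its signal was 313 and 505.2 in transgenic 4 weeks pools, against 545.4 and 46.8 in control 4 weeks pools. The value of 46.8 lies below that array's median signal of 121.9, and the other 7 lie above theirs, so the 11.7-fold ratio of the control pools rests on a dim value. The control pools enclose both transgenic pools. At 48 hours it was 350.2 and 245.1 in transgenic pools, against 264.5 and 184 in control pools, and these overlap. The log2 differences were 1.02 at 4 weeks (SE 0.74, adjusted p 0.986) and 0.36 at 48 hours (SE 0.74, adjusted p 0.984). The low value belongs to the array with the actin ratio of 37.0. Without that array the 4 weeks difference was -0.42, and without the other control pool it was 2.47 with an unadjusted p of 0.000513 and an adjusted p of 0.321. A fit with that ratio as a covariate gave -0.39, so that no direction of Itgam at 4 weeks can be given.

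**Figure D2:**
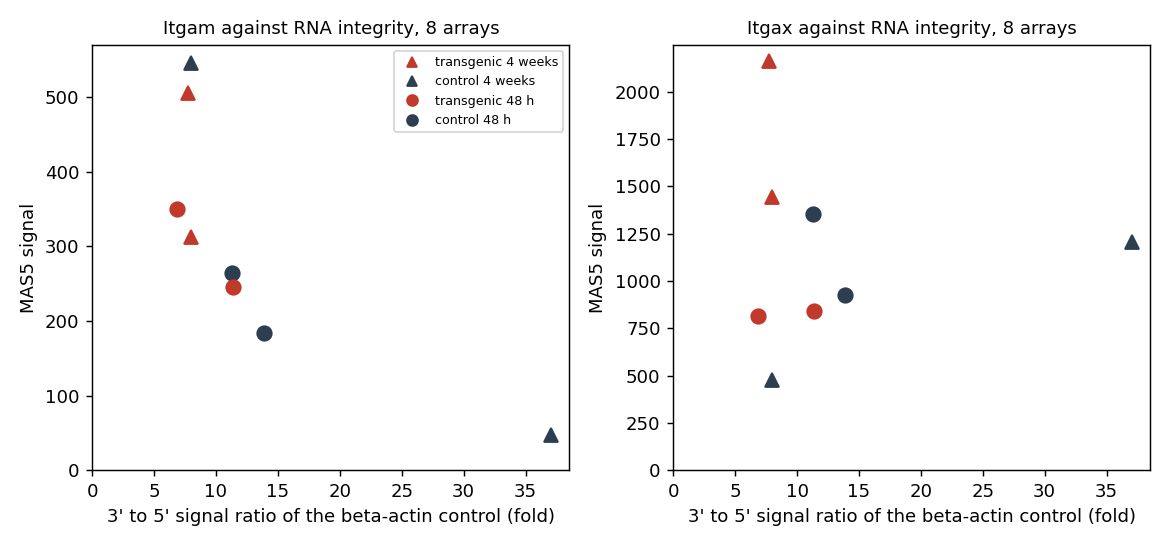
MAS5 signal of Itgam (left) and Itgax (right) against the 3' to 5' signal ratio of the beta-actin control on each of the 8 arrays; red is transgenic, dark blue control, triangles 4 weeks, circles 48 hours. The lowest Itgam value, 46.8, stands at the highest ratio, 37.0, while Itgax at that ratio is 1205.

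The genes whose values over the 8 arrays were most like Itgam's were Micos13 (Pearson r 0.98), Haus2 (0.97) and Nifk (0.96), each at its lowest in control 4 weeks pool 2. Micos13 was at 1060.6 and 1135.8 in transgenic 4 weeks pools, against 1242 and 501.7 in control 4 weeks pools. For Itgax they were Tpm4 (0.97), Slamf8 (0.96) and Ankrd44 (0.94), and 34 genes passed an r of 0.9 with Itgam and 18 with Itgax. These likenesses are descriptions over 8 arrays that differ in RNA quality and share one scaling.

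Neutrophils carry Cd11b too, and their 10 measured of 13 listed markers had summed signals of 8503.3 and 8757.7 in transgenic 4 weeks pools, against 11565.3 and 24093.5 in control 4 weeks pools. At 48 hours the sums were 9865.7 and 10595 in transgenic pools, against 15556.7 and 17629.1 in control pools. The transgenic sums were below the control sums at both times. By group means, all 10 markers were lower in transgenic pools at 4 weeks and 8 of 10 at 48 hours. The 4 weeks count includes the array with the high actin ratio, where the markers' median log2 deviation from their means was 0.96. It was -0.34 in control 4 weeks pool 1, close to the -0.49 and -0.36 of the transgenic 4 weeks pools. S100a8, a calprotectin chain of neutrophils and monocytes, had its highest signal, 11267, in control 4 weeks pool 2, the pool in which Itgam was lowest. The part of these cells in the Itgam values was not tested.

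Itgam and Itgax are neighbours on mouse chromosome 7, between Trim72 and Itgad, yet their signals moved apart in both control 4 weeks pools. In pool 1 Itgam was at its highest, 545.4, and Itgax at its lowest, 474.2. In pool 2, the array with the high actin ratio, Itgam was at its lowest, 46.8, and Itgax at 1205. Their promoters are shown because the 2 adjacent genes of one receptor family gave different patterns over the arrays. The sequences are the 250 bases before each RefSeq start (GRCm38.p6, plus strand, chr7:128062390-128062639 for Itgam and chr7:128129300-128129549 for Itgax), with every GAGGAA in capitals on either strand (TTCCTC on the minus strand). This is a core bound by PU.1, the myeloid ETS factor.
Itgam: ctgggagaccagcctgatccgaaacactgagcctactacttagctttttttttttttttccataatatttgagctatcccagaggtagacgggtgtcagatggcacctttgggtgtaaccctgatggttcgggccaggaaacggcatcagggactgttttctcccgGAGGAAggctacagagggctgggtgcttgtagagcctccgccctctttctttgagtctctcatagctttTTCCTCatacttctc
Itgax: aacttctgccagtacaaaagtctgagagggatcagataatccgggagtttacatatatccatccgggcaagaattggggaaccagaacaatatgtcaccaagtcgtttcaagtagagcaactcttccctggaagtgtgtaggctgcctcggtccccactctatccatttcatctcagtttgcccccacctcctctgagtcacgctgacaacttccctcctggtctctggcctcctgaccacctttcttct
The Itgam stretch held 2 matches and the Itgax stretch 0. Of 6 receptor genes with a promoter in the table, 3 held a match (Itgam, Itgav and Itgb1), beside 23.25% of all 32851 promoters trimmed to the same length, and TATAAA was in 0 of 6 beside 12.37%. A match is a description of letters, not a site.

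The common beta 2 chain was the flattest of the 9. Itgb2 was at 14911.9 and 14197.3 in transgenic 4 weeks pools, against 14241.7 and 12194 in control 4 weeks pools. It was at 12290.9 and 11740.6 in transgenic 48 hours pools, against 14052.4 and 12097.3 in control 48 hours pools. The genotypes overlapped at both times, with log2 differences of 0.14 at 4 weeks (95% interval -0.26 to 0.55) and -0.12 at 48 hours (95% interval -0.52 to 0.29). The highest signal was 1.27-fold the lowest, so its partner chains Itgam and Itgax varied over arrays on which Itgb2 did so by far less.

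Itgal, the alpha chain of LFA-1, differed more between pools than between genotypes. It was at 459.3 and 1401.2 in transgenic 4 weeks pools, against 495.4 and 1220.4 in control 4 weeks pools. The 48 hours signals were 774 and 893.8 in transgenic pools, against 809.1 and 1194.6 in control pools. Pool 2 was above pool 1 in all 4 groups, by 3.05-fold in the transgenic 4 weeks group, and the genotype differences were 0.05 and -0.23. The other Itgal probe set lay above the array median only on the 2 control 4 weeks arrays, and so passed the filter through that group alone. It was at 39.2 and 12.6 in transgenic 4 weeks pools, against 178.4 and 320.1 in control 4 weeks pools. The log2 difference was -2.30 (SE 0.55, limma adjusted p 0.940 over 34945 probe sets). At 48 hours it was at 81 and 61 in transgenic pools, against 17.4 and 18.8 in control pools, a difference of 1.05. The 2 Itgal probe sets thus gave different values, and those of the second are too dim to give the size of a difference.

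T cells carry LFA-1 and the alpha 4 integrins in quantity, and 6 measured of 9 listed T cell markers summed to 2581.5 and 2397.1 in transgenic 4 weeks pools, against 1153 and 1627.6 in control 4 weeks pools. At 48 hours the sums were 4115.2 and 2295.6 in transgenic pools, against 6538.3 and 4142.5 in control pools. The transgenic sums lay above the control sums at 4 weeks, with 5 of the 6 markers higher (median log2 difference 0.64). At 48 hours both transgenic sums lay below both control sums, with 3 markers higher and 3 lower (median 0.02). Cd8a, also carried by part of the dendritic cells, made up much of the 48 hours sums, at 2568 and 1250.4 in transgenic pools, against 5174.4 and 2021 in control pools. Without it, a choice made after its values were seen, the 48 hours sums were 1547.2 and 1045.2 in transgenic pools, against 1363.9 and 2121.5 in control pools, which overlap. Cd3d, Cd3e and Cd3g each had values below the array median in both genotypes at 4 weeks, and Cd4 did not pass the filter. Cd3d was at 235.5 and 15.2 in transgenic 4 weeks pools, against 29.2 and 25.9 in control 4 weeks pools. Cd3e was at 136.3 and 18.8, against 55.7 and 162.8. The 4 weeks count and median thus rest in part on dim values. Of the brighter markers, Cd2 was at 753.5 and 906.5 in transgenic 4 weeks pools, against 253.2 and 242.6 in control 4 weeks pools. Cd8a was at 795.9 and 991.3, against 521.8 and 297.2, and Icos at 528.9 and 394.1, against 248.9 and 795.2, which overlap. At 4 weeks 2 of the 6 markers were past limma's unadjusted p of 0.05, beside 5.05% of all genes, and 0 after adjustment. The part of T cells in Itgal, Itga4 or Itgb7 was not tested.

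Among the chains that pair outside the beta 2 family, Itgb1 came nearest to a genotype difference. It was at 774.8 and 959.5 in transgenic 4 weeks pools, against 687.7 and 435.5 in control 4 weeks pools. In the 48 hours groups it was at 765.3 and 541.1 in transgenic pools, against 540.3 and 539.1 in control pools. Transgenic pools were above control pools at both times, by 0.63 at 4 weeks (SE 0.31, unadjusted p 0.0731, adjusted p 0.980) and by 0.24 at 48 hours (SE 0.31, adjusted p 0.979), the second with 541.1 against 540.3 at the boundary. The 4 weeks difference was 0.31 without control 4 weeks pool 2 (unadjusted p 0.382) and 0.94 without control 4 weeks pool 1. The 48 hours one was 0.0035 without transgenic 48 hours pool 1 and 0.48 without transgenic 48 hours pool 2. A second Itgb1 probe set had differences of 0.33 at 4 weeks and -0.08 at 48 hours, with 686 and 747.8 in transgenic 4 weeks pools, against 715.6 and 445.7 in control 4 weeks pools. On that probe set the groups overlapped at 4 weeks. The genes most like Itgb1 were Usp15 (r 0.99), Rac1 (0.98) and Sdf2l1 (0.97), of 44 genes past an r of 0.9.

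Itgav was at 3296.7 and 6636.5 in transgenic 4 weeks pools, against 2718.6 and 3339.5 in control 4 weeks pools. The 48 hours signals were 3794.7 and 4990.7 in transgenic pools, against 3231.2 and 5004.4 in control pools. The single value of 6636.5 stands above the other 7, and the groups overlap at both times. The differences were 0.63 at 4 weeks (SE 0.34, adjusted p 0.980) and 0.11 at 48 hours (SE 0.34, adjusted p 0.987). Without transgenic 4 weeks pool 2 the 4 weeks difference was 0.13.

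Itga4, the chain shared by the VCAM-1 and MAdCAM-1 receptors, was the 1 gene of the 9 with a negative difference at 4 weeks. It was at 1585.2 and 1873.5 in transgenic 4 weeks pools, against 2024.4 and 2029.2 in control 4 weeks pools. Both transgenic pools were below both controls, by a log2 difference of -0.23 (SE 0.28, adjusted p 0.995). At 48 hours it was at 1329.7 and 2102.1 in transgenic pools, against 1590.1 and 2162.8 in control pools, which overlap, with a difference of -0.15. Of the further Itga4 probe sets that passed the filter, 1 gave -0.37 at 4 weeks and the other 0.02. The latter was at 557.6 and 523.5 in transgenic 4 weeks pools, against 543 and 518.8 in control 4 weeks pools, which overlap.

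Itgb7 was at 1010 and 1335.8 in transgenic 4 weeks pools, against 893.2 and 1253 in control 4 weeks pools, which overlap. In the 48 hours groups it was at 1074.2 and 1010.3 in transgenic pools, against 1440.4 and 1245.7 in control pools. Both transgenic pools lay below both controls at 48 hours, by a log2 difference of -0.35 (SE 0.27, unadjusted p 0.222, adjusted p 0.977), while at 4 weeks the difference was 0.13. The gene most like it was Slc15a2, a peptide transporter (r 0.97), with Efhd2 and Clec7a, the beta-glucan receptor dectin-1, next (both 0.97). Of the 9 genes, Itgb7 had the most others past an r of 0.9, 60, and Itgb2 the fewest, 3.

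Adgre1 was at 13113.6 and 14627.4 in transgenic 4 weeks pools, against 9842.1 and 11954.8 in control 4 weeks pools. Both transgenic pools were above both controls, by 0.35 on the log2 scale (SE 0.20, 95% interval -0.08 to 0.79, unadjusted p 0.102, adjusted p 0.980), a 1.28-fold difference. The 48 hours signals were 13483.2 and 11139.6 in transgenic pools, against 14555.9 and 12909.8 in control pools, which overlap, with a difference of -0.16 (adjusted p 0.979). The difference between the times' genotype differences was 0.51 (SE 0.28, unadjusted p 0.0928, adjusted p 0.989). Without control 4 weeks pool 1 the 4 weeks difference was 0.21. Of the 12 measured macrophage markers, 3 were higher and 9 lower in transgenic pools at 4 weeks (median log2 difference -0.12, beside -0.02 over all genes). At 48 hours 7 were higher and 5 lower (median 0.07, beside 0.04). By limma's unadjusted p of 0.05, 1 of the 12 was past at 4 weeks, higher, beside 5.05% of all genes. At 48 hours 1 was past, lower, beside 4.07%.

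Eosinophils carry both Cd11b and F4/80, and the 4 measured of 8 listed eosinophil and mast cell markers had summed signals of 2202.1 and 1882 in transgenic 4 weeks pools, against 1599.2 and 1462 in control 4 weeks pools. At 48 hours the sums were 2258 and 2195.2 in transgenic pools, against 2347.9 and 3024.2 in control pools. All 4 markers were higher in transgenic pools at 4 weeks (median log2 difference 0.60) and lower at 48 hours (median -0.38), the directions of Adgre1 at both times. In control pools 1 of the 4 was higher and 3 were lower at 4 weeks than at 48 hours (median -1.21). The list mixes eosinophil and mast cell genes, and Epx, Prg2, Mcpt4 and Fcer1a did not pass the signal filter. Without Cpa3, its highest gene, the 4 weeks sums were 988.6 and 731.3 in transgenic pools, against 352.2 and 564.3 in control pools. Ccr3 was at 99.5 and 19.6 in transgenic 4 weeks pools, against 7.8 and 19.3 in control 4 weeks pools, all below the array medians. The sums thus do not measure eosinophils alone, and the part of these cells in the Adgre1 values was not tested.

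**Figure D3:**
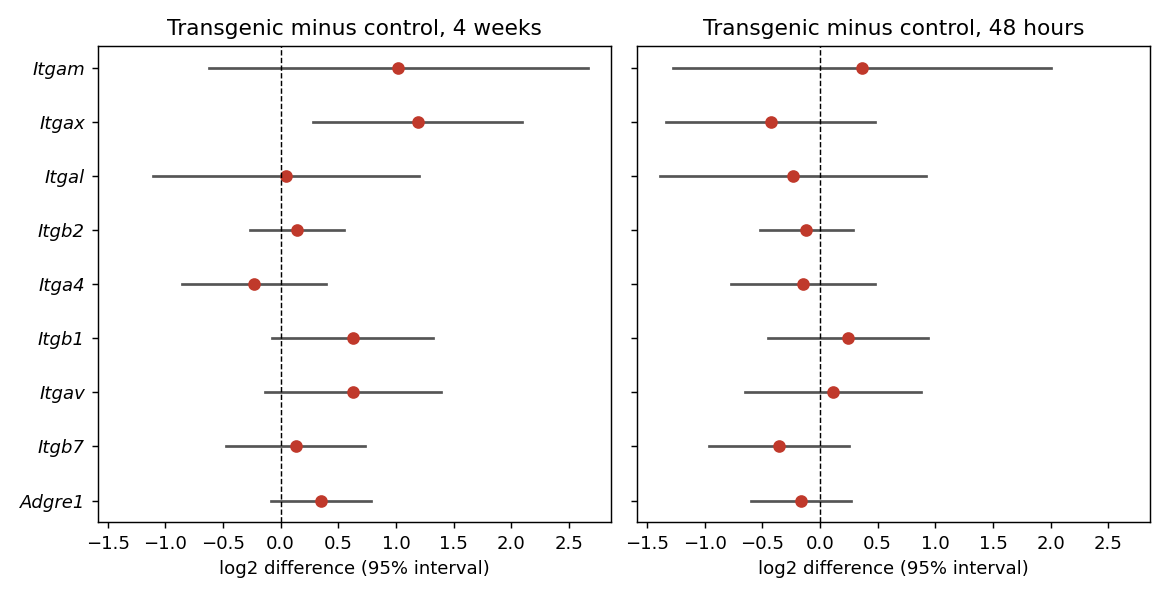
Log2 difference, transgenic minus control, of the 9 genes at 4 weeks (left) and 48 hours (right), with the 95% interval from limma; the dashed line is no difference. The interval of Itgax at 4 weeks, 0.28 to 2.09, is the only one drawn that leaves out 0.

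Counted over the 9 genes, both transgenic pools were above both control pools for 3 genes at 4 weeks (Itgax, Itgb1 and Adgre1), where 14.7% of all genes tested were so placed, and below them for 1 (Itga4), where 17.2% were. At 48 hours 1 gene was above (Itgb1), beside 18.9% of all genes, and 2 were below (Itgax and Itgb7), beside 16.1%. With 9 genes, these counts are no result about the receptors. A genotype difference fitted over both times called 0% of all genes after adjustment and 4.61% at an unadjusted p of 0.05, and 0 of the 9 genes in either count.

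Over time, Itgax and Adgre1 again gave the clearest orders. In transgenic pools Itgax was at 1443.4 and 2164 at 4 weeks, against 813.5 and 840.4 at 48 hours, a log2 difference of 1.07 (SE 0.41, unadjusted p 0.0249, adjusted p 1.0). Both 4 weeks pools were above both 48 hours pools, as they were for Itgb2 (0.28) and Itgb1 (0.40), which makes 3 genes of 9 beside 14.1% of all genes, with 0 of 9 in the opposite order beside 14.5%. Of all genes, 0% were called after adjustment and 2.2% at an unadjusted p of 0.05, and Itgax was the 1 gene of the 9 past that unadjusted threshold. In control pools Adgre1 was at 9842.1 and 11954.8 at 4 weeks, against 14555.9 and 12909.8 at 48 hours, a difference of -0.34 (SE 0.20, unadjusted p 0.115, adjusted p 0.861), and of -0.20 without control 4 weeks pool 1. It was the 1 gene of the 9 with both 4 weeks pools below both 48 hours pools, beside 13.7% of all genes, and 0 of 9 were above, beside 18%. In control pools 0.00764% of genes, 1 gene, passed the adjusted threshold, and 6.16% were past an unadjusted p of 0.05, with 0 of the 9 genes in either. That gene, chosen here after its value was seen, was F5, coagulation factor V, at 1045.8 and 1426.6 in control 4 weeks pools, against 5243.8 and 7843.2 in control 48 hours pools (log2 difference -2.36, SE 0.26, adjusted p 0.0394).

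Alpha and beta chains that form one receptor were compared over the 8 arrays for 6 pairs. Pearson's r was 0.57 for Itgam with Itgb2 (rho 0.71), 0.31 for Itgax with Itgb2 (rho 0.31) and -0.51 for Itgal with Itgb2 (rho -0.52). It was -0.43 for Itga4 with Itgb1 (rho -0.62), -0.05 for Itga4 with Itgb7 (rho 0) and 0.30 for Itgav with Itgb1 (rho 0.14). The exact permutation p of r was 0.128, 0.466, 0.195, 0.274, 0.915 and 0.467 in that order, and no pair passed after adjustment over the 6 (lowest adjusted p 0.548 for r and 0.345 for rho, exact permutation). Without the 2 arrays farthest from the median of the alpha chain, r was 0.52, 0.84, 0.16, -0.16, -0.59 and -0.18. The sign of 2 of the 6 (Itgal with Itgb2 and Itgav with Itgb1) turned when those arrays were left out.

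**Figure D4:**
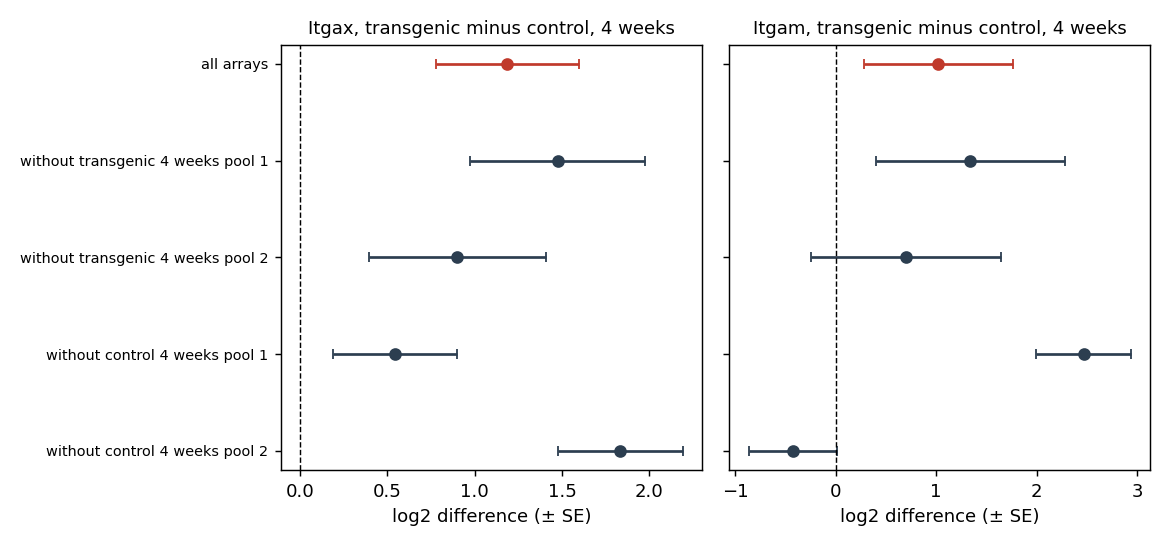
Log2 difference, transgenic minus control at 4 weeks, of Itgax (left) and Itgam (right) with all arrays (red) and without each 4 weeks pool in turn (dark blue); bars are standard errors and the dashed line is no difference. Itgax runs from 0.54 to 1.83, above 0 as it must be where groups do not overlap, while Itgam runs from -0.42 to 2.47.

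The list of other integrin chains also holds Itgbl1, an integrin beta-like gene that is not a chain. Of the 19 listed genes 14 were measured, Itgbl1 among them, and 0 passed the adjusted threshold in any comparison. At 4 weeks 9 were higher and 5 lower in transgenic pools, with a median log2 difference of 0.17 beside -0.02 over all genes, and 1 of 14 was past an unadjusted p of 0.05, beside 5.05% of all genes. That was Itgb3, the beta 3 chain that pairs with Itgav in vitronectin receptors, at 113 and 118.7 in transgenic 4 weeks pools, against 11.5 and 17.1 in control 4 weeks pools (log2 difference 1.70, unadjusted p 0.00969). Its control values lie far below the array medians. Itgae, the CD103 chain that pairs with Itgb7 and is also on the dendritic cell list, was at 361.3 and 368.6 in transgenic 4 weeks pools, against 168 and 306.3 in control 4 weeks pools. At 48 hours Itgae was at 278 and 226.9 in transgenic pools, against 453.5 and 404.8 in control pools, and its genotype differences differed by 1.32 between the times (unadjusted p 0.0226).

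Ligands and counter-receptors of integrins were measured for 19 of 25 listed symbols, one gene being listed under an old and a current symbol, with 0 past the adjusted threshold and 10 higher and 9 lower in transgenic pools at 4 weeks (median 0.10, beside -0.02 over all genes). At an unadjusted p of 0.05, 1 of the 19 was past the threshold at each time, beside 5.05% of all genes at 4 weeks and 4.07% at 48 hours. Fn1, fibronectin, a ligand of Itga4 with Itgb1 that macrophages and monocytes also make, was at 22498.2 and 23285.1 in transgenic 4 weeks pools, against 11655.6 and 12618.9 in control 4 weeks pools. The groups lay well apart, by 0.91 on the log2 scale (unadjusted p 0.00317), while at 48 hours Fn1 was at 20316.4 and 11860.7 in transgenic pools, against 14143.4 and 14816.9 in control pools, which overlap. Icam1, the main counter-receptor of LFA-1 and Mac-1, was at 9978 and 15921.7 in transgenic 4 weeks pools, against 6732.7 and 14632.9 in control 4 weeks pools, and Vcam1, that of Itga4 with Itgb1, at 1591 and 4344.8 in transgenic 4 weeks pools, against 676.3 and 3225.1 in control 4 weeks pools. In both, the pools of a genotype differed more than the genotypes. Fgg, the fibrinogen gamma chain that Mac-1 binds, was at 509.6 and 558.2 in transgenic 48 hours pools, against 95.3 and 172.3 in control 48 hours pools (log2 difference 1.82, unadjusted p 0.00453), and at 4 weeks at 297.2 and 174.7 in transgenic pools, against 148.4 and 474.1 in control pools.

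Luminal epithelial cells are not the cells of the sort, yet 11 measured of 13 listed markers of them had summed signals of 13232.7 and 13773.1 in transgenic 48 hours pools, against 4795.9 and 5207 in control 48 hours pools. At 4 weeks the sums were 12792.2 and 7496.2 in transgenic pools, against 15321.6 and 10335.9 in control pools, which overlap. At 48 hours 9 of the 11 were higher in transgenic pools (median log2 difference 1.38). Of the 11, 7 were past an unadjusted p of 0.05, beside 4.07% of all genes, and 0 after adjustment. At 4 weeks 3 were higher and 8 lower (median -0.13). Krt8, an epithelial keratin, was at 2747.3 and 3691.6 in transgenic 48 hours pools, against 624.7 and 702.3 in control 48 hours pools. Epithelial cells also carry Itgb1 and Itgav, and the part of such cells in the 48 hours values of Fgg, Itgb1 and Itgav was not tested. The 8 fibroblast markers summed to 72635.7 and 76298.1 in transgenic 48 hours pools, against 38111.7 and 86587.2 in control 48 hours pools, which overlap. By group means, all 8 were higher in transgenic pools at 48 hours (median log2 difference 0.44) and 6 of 8 at 4 weeks (median 0.24), with 0 past an unadjusted p of 0.05. The markers' median log2 deviation from their means was -0.82 in control 48 hours pool 1 but 0.46 in control 48 hours pool 2. In the transgenic 48 hours pools it was 0.12 and 0.22. The part of fibroblasts in the Fn1, Itgb1 and Itgav values was not tested.

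The machinery that switches integrins on and ties them to actin was measured for 33 of 37 listed genes, with 0 past the adjusted threshold. At 4 weeks 20 were higher and 13 lower in transgenic pools, with a median of 0.12 beside -0.02 over all genes. Flna, filamin A, which binds beta chain tails and holds integrins inactive, was at 2691.9 and 3847.5 in transgenic 4 weeks pools, against 1378.1 and 1618.4 in control 4 weeks pools (log2 difference 1.09, unadjusted p 0.00793). Lims1, the PINCH adaptor of integrin-linked kinase, was at 3742.9 and 3605.3 in transgenic 4 weeks pools, against 2700.3 and 2225.2 in control 4 weeks pools (0.58, unadjusted p 0.0208). Those were the 2 of the 33 genes past an unadjusted p of 0.05 at 4 weeks, beside 5.05% of all genes. Fermt3, kindlin-3, the activator of leukocyte integrins, was at 13976.1 and 12581.9 in transgenic 4 weeks pools, against 14343.6 and 14100.9 in control 4 weeks pools, and Tln1, talin, at 1754.3 and 2090.3 in transgenic 4 weeks pools, against 1242.5 and 2014 in control 4 weeks pools. At 48 hours 1 of the 33 was past the unadjusted threshold, beside 4.07% of all genes: Skap1, an adaptor best known in T cells, at 33.4 and 31.2 in transgenic 48 hours pools, against 159.1 and 139.7 in control 48 hours pools (log2 difference -1.51, unadjusted p 0.0385). The transgenic values lie far below the medians of their arrays, 96.2 and 105.6, so the size of that difference is not well measured.

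The list of other EGF-TM7 and related receptors held 6 symbols, the old and current ones of 3 genes, and all 3 genes were measured: Adgre5, the CD97 gene, Adgre4 and the endothelial receptor Adgrl4. Adgre4, a close relative of F4/80 on mouse myeloid cells, was at 3322.5 and 5108.7 in transgenic 4 weeks pools, against 2244 and 3832.1 in control 4 weeks pools, with a log2 difference of 0.49. At 48 hours it was at 3526.9 and 3857.5 in transgenic pools, against 4091.2 and 5996.5 in control pools, with a difference of -0.42, so Adgre4, like Adgre1, had a positive value at 4 weeks and a negative one at 48 hours. Adgre5 was at 5499.3 and 5124 in transgenic 4 weeks pools, against 4861.4 and 3382.6 in control 4 weeks pools, with differences of 0.39 at 4 weeks and -0.18 at 48 hours. None of the 3 passed the adjusted threshold in any comparison.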

How the data were processed

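The deposited values are linear signal intensities per probe set that the authors made with MAS5, per the submitters' processing notes, for 8 Affymetrix mouse arrays. Their values ran from 0.3 to 159546.7, and the trimmed mean of every array was 500. Of 45101 probe sets, 34945 carry 1 gene symbol. Signals were turned into log2(signal + 30.8), the offset being the 25th percentile of all values. Probe sets above their array's median on at least 2 arrays were kept, and the one with the highest mean signal stood for its gene, which left 13083 genes. A linear model of 4 group means over the 8 arrays was fitted with limma 3.58.1 under R 4.3.3 (lmFit, contrasts.fit, eBayes with trend). It had 4 residual degrees of freedom and 6.24 prior ones, drawn from the spread of other genes. The genotype difference over both times came from a model of genotype and time, with 5 residual degrees of freedom. Two-sided p-values were adjusted (Benjamini-Hochberg) across every gene tested in a comparison, with a threshold of 0.05. Named genes were the 9 receptor genes, up to 4 genes of each list with the smallest unadjusted p in a comparison or for their level, and the 3 genes most like each receptor gene. Members and lists were chosen with earlier results of these data known. Alternatives were quantile normalization, offsets of 1 and of the median 108.1, a filter at the 75th percentile or none, other probe set choices, no trend, array weights, pool number as replicate block, only a comparison's own arrays, the actin ratio as a covariate, other thresholds and each pool left out. The fit was tested on simulated data. Promoters came from RefSeq (GRCm38.p6), which held 6 of the 9 genes; figures were drawn with Python 3.11.15 and matplotlib 3.10.9.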

Additional observations from a re-analysis of the deposited data

Results flagged for a closer look

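Itgax, the CD11c chain, stood out because its genotype difference had opposite directions at the 2 times. Both transgenic pools were above both control pools at 4 weeks (1443.4 and 2164 in transgenic pools, against 474.2 and 1205 in control pools) and below both at 48 hours (813.5 and 840.4 in transgenic pools, against 1353.8 and 928.1 in control pools). The difference between the differences was 1.61 on the log2 scale, with an unadjusted p of 0.0183 and an adjusted p of 0.989 by limma over 13083 genes. It ranged from 0.97 to 2.26 when 1 pool was left out. No group had enough pools for a search for single outlying values.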

How the results depend on the processing

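Of 531 values of the 9 genes and 5 comparisons under settings other than a pool left out, 522 kept their direction and 0 passed the adjusted threshold (lowest adjusted p 0.346). Of 360 values without 1 pool, 330 kept it and 0 passed (lowest 0.225). The signs that turned were these; their cause was not tested. With the actin ratio as a covariate Itgam was at -0.12 for the difference between the times' genotype differences, 0.32 over time in controls, -0.39 between genotypes at 4 weeks and -0.27 at 48 hours, and Itgal at 0.047 over time in transgenic pools and 0.042 between genotypes at 48 hours. Quantile normalization gave Itgb2 -0.010 over time in controls. The probe set with the highest mean log2 value gave Itgb1 -0.22 over time in controls and -0.079 between genotypes at 48 hours. Among partner chains, deviations from group means gave r -0.44 (Itgax with Itgb2) and -0.069 (Itgav with Itgb1), and quantile normalization 0.040 (Itga4 with Itgb7). Ranges with each pool left out, for the values that turned, were as follows. For the difference between the times' genotype differences: -0.79 to 2.10 (Itgam), -0.49 to 1.05 (Itgal), -0.41 to 0.24 (Itga4). Over time in controls: -1.70 to 1.19 (Itgam), -1.19 to 0.10 (Itgax), -0.95 to 0.30 (Itgal), -0.10 to 0.13 (Itgb2), -0.092 to 0.34 (Itga4), -0.29 to 0.33 (Itgb1). Over time in transgenic pools: -0.82 to 0.73 (Itgal), -0.28 to 0.37 (Itga4), -0.40 to 0.61 (Itgav), -0.043 to 0.35 (Itgb7). Between genotypes at 4 weeks: -0.42 to 2.47 (Itgam), -0.73 to 0.82 (Itgal), -0.11 to 0.37 (Itgb7). Between genotypes at 48 hours: -0.51 to 0.039 (Itgal), -0.47 to 0.18 (Itga4), -0.20 to 0.43 (Itgav).

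Counts of all genes called moved as follows. Between genotypes at 48 hours 0 became 1 with the arrays of the comparison alone and 532 at an unadjusted p of 0.05; at 4 weeks 0 became 2 with the pool number as a replicate block, 1 with those arrays alone and 661 unadjusted. The count was 620 unadjusted for the difference between the times, 288 over time in transgenic pools and 603 for both times together. Over time in controls 1 became 0 with a filter at the 75th percentile (fewer genes tested), without the trend, with array weights and with those arrays alone, 4 with the replicate block, 7 with the actin ratio, 2 at an adjusted p of 0.1 and 806 unadjusted. Leaving out a pool gave 0 to 7 calls there, the 7 without control 4 weeks pool 2, and 0 to 1 in the other comparisons. Of 6 correlations between same-numbered pools' deviations (-0.084 to 0.133 over genes), 3 were over 0.1 and not all, so the numbers were not taken to pair the pools and the block is only a check; it changed no call of the 9 genes. All Itgam probe sets gave the same result because there is 1. Detection calls were not used here, so dim signals have no order, and 2 pools per group limit every value.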
